A study of Caenorhabditis elegans with 30 samples.

Results

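The effect of the nuo-6 mutation on each gene of Caenorhabditis elegans was compared between worms that lacked and worms that carried 2 genes for histone H3.3. Per gene, the quantity was the log2 ratio of the triple mutant nuo-6;his-72;his-71 over the double mutant his-72;his-71, less the log2 ratio of nuo-6 over wild type (WT). The alleles were qm200 for nuo-6, tm2066 for his-72 and ok2289 for his-71 in every strain that carried them. The first ratio is called here the nuo-6 effect without H3.3, the second the nuo-6 effect with H3.3. Genes were compared where the value was above 0 in all 4 genotypes and reached 5 FPKM in at least 1 of them, which held for 12104 of 20483 genes. FPKM are sequenced fragments scaled to transcript length and library size.

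Whole animals were taken late in L4, the last larval stage. The populations had been synchronised with bleach, were kept at 20 °C with OP50 bacteria as food, and received no treatment. Each genotype had 5 biological replicates, but the deposited tables give 1 FPKM value per gene and genotype. The 4 genotypes compared are thus 4 pools of 5 samples each, out of 6 genotypes and 30 samples in the study. No spread between replicates could be had, and no test or p-value stands behind any difference below.

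H3.3 is the histone H3 variant that is put into chromatin throughout the cell cycle, at active genes and where nucleosomes are replaced, while the canonical H3 is put in during DNA replication. In the worm most tissues make it from his-71 and his-72. The gene nuo-6 encodes a subunit of complex I, the enzyme through which NADH enters the mitochondrial respiratory chain, and the qm200 allele lowers respiration and is known for a long life span. "Without H3.3" means that his-71 and his-72 were deleted, while further H3.3 genes remained. Both effects come from mutations present throughout development, in whole animals.

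The deleted genes had the levels their labels call for. At WBGene00001945, chromosome X, 7981381 to 7982070, his-71 had 0.337 FPKM in the triple mutant and 0.276 in the double mutant, against 223 in nuo-6 and 303 in WT. his-72 (WBGene00001946, chromosome III, 12367475 to 12369050) had 0.321 FPKM in the triple mutant and 0.408 in the double mutant, against 226 in nuo-6 and 418 in WT. A nuo-6 effect without H3.3 on these 2 genes is a ratio of values near 0 and is not read. Transcripts of nuo-6 itself (WBGene00012166, chromosome I, 7065263 to 7069188), which shares its listed locus with another gene, stood at 464 FPKM in the triple mutant and 368 in the double mutant, against 634 in nuo-6 and 395 in WT. Positions are those of the authors' tables, whose genome build is not given in the sources used here.

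A difference, or an effect, was called where it was at least 2-fold, that is 1 on the log2 scale, and for an effect the higher of its 2 pools also had to reach 5 FPKM. The nuo-6 effect was more negative without H3.3 in 2332 genes (19.3% of those compared) and more positive in 870 (7.19%), together 26.5%. The median difference over all compared genes was -0.16. With the pools scaled to equal median ratios this median became 0.03, and the split became 1941 more negative and 1229 more positive. With the effects centred in bins of transcript length, an alternative chosen after seeing the data, it became 1707 and 1356. Without H3.3, nuo-6 called 655 genes higher (5.41%) and 764 lower (6.31%). With H3.3 it called 2413 higher (19.9%) and 639 lower (5.28%). The standard deviation of the log2 effect over genes was 0.86 without H3.3 and 1.23 with it. The effects share no pool, and across the 12104 genes they had a Pearson's r of 0.14 and a Spearman's rho of 0.11, a description over genes that are not independent replicates.

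Effects called with H3.3 but not without it, and different by at least 2-fold, are termed lost. There were 1643 of them (13.6%), of which 1212 were higher in nuo-6 with H3.3 (10%) and 431 were lower (3.56%). Centred by transcript length, 780 lost effects were higher with H3.3 and 743 lower, and with scaled pools 1007 were higher and 587 lower. Effects called in opposite directions are termed reversed, and 379 of these 392 genes were higher with H3.3 and lower without (3.13%), while 13 went the other way (0.107%), or 35 centred by transcript length and 25 with scaled pools. Effects called without H3.3 but not with it, and different by at least 2-fold, are termed gained. They numbered 402 (3.32%), with 138 higher (1.14%) and 264 lower (2.18%). Effects called in the same direction and within 2-fold of each other are termed kept, and these were 316 higher (2.61%) and 38 lower (0.314%), 354 in all (2.92%). Called in both with a difference of at least 2-fold were 68 genes with a smaller effect without H3.3 and higher in both (0.562%), 5 smaller and lower (0.0413%), 13 larger and higher (0.107%) and 3 larger and lower (0.0248%).

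The remaining genes had no called difference of effects, or no called effect. An effect was called with H3.3 alone, with a difference under 2-fold, in 425 genes higher (3.51%) and 149 lower (1.23%), and without H3.3 alone in 107 higher (0.884%) and 75 lower (0.62%). The difference was called though neither effect was in 267 genes higher (2.21%) and 409 lower (3.38%). No effect and no difference were called in 7792 genes (64.4%).

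Read by fate, the 2413 genes higher in nuo-6 with H3.3 were lost in 50.2% of cases, reversed in 15.7% and kept in 13.1%. A further 17.6% were not called without H3.3 but differed by less than 2-fold. The 639 genes lower with H3.3 were lost in 67.4%, reversed in 2.03% and kept in 5.95%. From the other side, 48.2% of the 655 genes higher without H3.3 were kept and 21.1% gained, while of the 764 genes lower without H3.3 49.6% were reversed, 34.6% gained and 4.97% kept. Not every lost effect was flat without H3.3. Of the 1212 lost genes that were higher with H3.3, 316 had a ratio of triple to double mutant at least 2-fold below 1 and 56 one at least 2-fold above 1, from pools that did not reach 5 FPKM. At the edges of the rule, K10H10.10 (5.00 FPKM in its highest pool) was just inside and F13E9.16 (4.999 FPKM) just outside. By the ratio, Y62H9A.12 had a difference of -1.0001 and ima-1 of -0.9999.

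**Figure D1:**
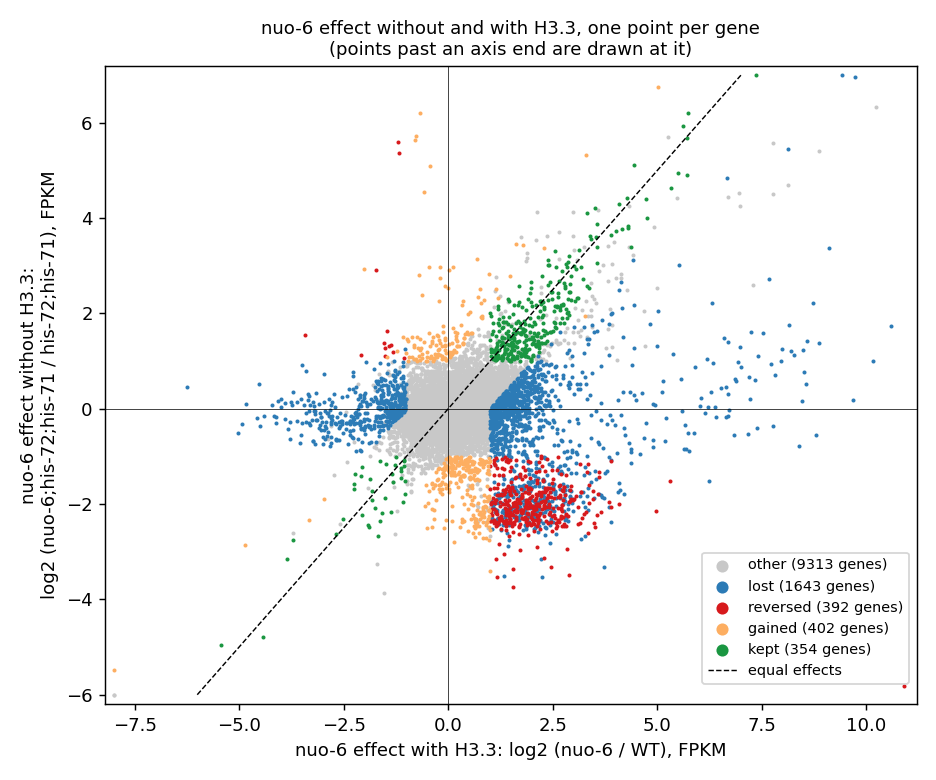
The nuo-6 effect without H3.3 (vertical axis, log2 FPKM ratio of triple over double mutant) against the effect with H3.3 (horizontal axis, log2 FPKM ratio of nuo-6 over WT), 1 point for each of 12104 genes, coloured by class, with the dashed line marking equal effects. The 379 genes reversed from higher with H3.3 to lower without form the red group below the horizontal zero line, and the 316 kept higher genes lie along the dashed line at upper right.

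The order of the 4 values describes each class, though the class definitions fix much of it. For the lost higher genes, nuo-6 was the highest pool in 1208 of 1212, and for the lost lower genes it was the lowest in 428 of 431. For the genes reversed from higher with H3.3, nuo-6 was the highest pool in 377 of 379 and the triple mutant the lowest in 375. By definition only nuo-6 or the double mutant could be highest there, and only the triple mutant or WT lowest. Gained lower genes had the triple mutant lowest in 255 of 264, and gained higher genes had it highest in 134 of 138, with the double mutant lowest in 71. The difference that defines the classes is also the log2 ratio of triple mutant over nuo-6 less that of double mutant over WT, so these ratios restate the classes from the side of H3.3 loss. The median log2 ratio of triple mutant over nuo-6 was -3.29 and that of double mutant over WT 0.64 in the genes reversed from higher. In the lost higher genes these medians were -1.79 and 0.27, and in the kept higher genes -0.03 and 0.17.

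The pools differed in more than these classes. The summed FPKM was 1177979 in the triple mutant and 1227564 in the double mutant, against 1508331 in nuo-6 and 1304234 in WT, and 10639, 10847, 11115 and 10451 genes in the same pools reached 5 FPKM. Sequencing depth is unknown. Values are uncertain for the 2831 compared genes whose listed locus is also that of another gene. A further 20 genes reached 5 FPKM in 1 pool but were listed at 0 in another, among them the ribosomal genes rps-3 (0 in the triple mutant) and rpl-32 (0 in WT), and were left out. The other 8359 genes stayed under 5 FPKM in all 4 pools.

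The lists of yolk, major sperm protein, other sperm and oocyte genes had the 4 most negative median differences of the 45 lists. Yolk proteins, or vitellogenins, are made in the intestine of the adult hermaphrodite and carried to oocytes. All 6 compared yolk genes were lower in the difference, with a median nuo-6 effect of -1.63 without H3.3 and 5.08 with it and a median difference of -6.34, beside -0.16 over all compared genes. The median of -1.63 rests largely on low values, with a median of 0.647 FPKM in the triple mutant and 2.33 in the double mutant. Of the 6 genes, 0 reached 5 FPKM in the triple mutant and 2 in the double mutant, against 6 in nuo-6 and 3 in WT. Some thus entered the comparison through nuo-6 alone, which favours a lower difference. Of the effects without H3.3, 2 were called lower. vit-6 (WBGene00006930, chromosome IV, 8261007 to 8266463) had 2.04 FPKM in the triple mutant and 9.05 in the double mutant, against 615 in nuo-6 and 19.5 in WT. vit-2 (WBGene00006926, chromosome X, 5101032 to 5106173) had 2.11 FPKM in the triple mutant and 6.02 in the double mutant, against 605 in nuo-6 and 15.4 in WT. High yolk transcripts were thus seen in nuo-6 alone among these 4 pools, and both genes were reversed, with differences of -7.12 and -6.81. vit-1, vit-4 and vit-5 had 78.1, 33.7 and 163 FPKM in nuo-6 and less than 6 FPKM in each other pool. The summed FPKM of the yolk list was 5.78 FPKM in the triple mutant and 20.6 in the double mutant, against 1513 in nuo-6 and 47.1 in WT.

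Major sperm proteins (MSPs) drive the crawling of nematode sperm and are expressed during spermatogenesis, which in hermaphrodites takes place around L4. All 28 compared MSP genes had a lower effect without H3.3, with a median effect of -2.24 without H3.3 and 2.79 with it and a median difference of -5.03, and 25 of them were reversed. In this list 28 members reached 5 FPKM in nuo-6, against 17 in the triple mutant, 25 in the double mutant and 24 in WT. A member that passes the minimum in nuo-6 alone is favoured to have a lower difference. msp-74 had 1.09 FPKM in the triple mutant and 12.22 in the double mutant, against 63.1 in nuo-6 and 8.55 in WT. msp-3 had 5.28 FPKM in the triple mutant and 29.3 in the double mutant, against 217 in nuo-6 and 18.99 in WT. The double mutant was above WT in both, and the order of the 4 pools was the same in both, with the triple mutant lowest. Summed over the list, MSP transcripts stood at 199 FPKM in the triple mutant and 999 in the double mutant, against 4667 in nuo-6 and 629.9 in WT. MSP genes are near-identical copies, so their single values are uncertain, and in whole worms fewer cells of a type and less RNA per cell cannot be told apart.

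Other sperm genes had the same pattern, lower in 44 of 49 with 0 higher, a median effect of -2.02 without H3.3 and 2.03 with it and a median difference of -3.99. Here 49 members reached 5 FPKM in nuo-6, against 18 in the triple mutant, 37 in the double mutant and 33 in WT. Some, such as ssp-37, passed the minimum in nuo-6 alone, which favours a lower difference. ssp-9, which encodes an MSP-domain protein, had 1.15 FPKM in the triple mutant and 6.02 in the double mutant, against 33.7 in nuo-6 and 2.99 in WT. ssp-34, another such gene, had 3.71 FPKM in the triple mutant and 18.1 in the double mutant, against 98.9 in nuo-6 and 10.8 in WT. Together the sperm lists supplied 50 of the 379 genes reversed from higher with H3.3. Of the 70 compared C-type lectins, 19 were lower and 9 higher in the difference, both above the 19.3% and 7.19% of all compared genes. The family was mixed, with 9 lost, 4 reversed, 9 gained and 7 kept effects. clec-123 had 1.70 FPKM in the triple mutant and 9.002 in the double mutant, against 16.13 in nuo-6 and 6.35 in WT, an order like that of the sperm genes.

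Oocyte and eggshell genes were lower in the difference in 20 of 29 with 0 higher, with a median effect of -0.68 without H3.3 and 1.14 with it and a median difference of -2.08. cpg-3, which encodes a chondroitin proteoglycan, had 2.78 FPKM in the triple mutant and 7.01 in the double mutant, against 56.3 in nuo-6 and 4.60 in WT. perm-2, needed for the permeability barrier of the eggshell, had 7.96 FPKM in the triple mutant and 8.68 in the double mutant, against 178 in nuo-6 and 10.2 in WT. puf-5, an RNA-binding regulator in oocytes, had 2.24 FPKM in the triple mutant and 4.34 in the double mutant, against 28.1 in nuo-6 and 3.32 in WT. In these 3 genes nuo-6 was the highest pool and the triple mutant the lowest. Of the list, 11 members were lost and 6 reversed effects. In nuo-6 29 members reached 5 FPKM, against 17 in the triple mutant, 25 in the double mutant and 23 in WT. The FPKM minimum thus favours members that are high in nuo-6. The list summed to 559 FPKM in the triple mutant and 619 in the double mutant, against 1271 in nuo-6 and 582 in WT.

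The broad germline and meiosis list had a smaller median effect with H3.3 than the sperm and oocyte lists. It was lower in 32 of 53 with 0 higher, with a median effect without H3.3 of -0.90, beside -0.07 over all genes, and a median with H3.3 of 0.17, beside 0.11. Of its members, 18 were gained lower effects. gld-1, a translational repressor of germ cells, had 38.00 FPKM in the triple mutant and 91.9 in the double mutant, against 115 in nuo-6 and 71.4 in WT. wago-1, an Argonaute of germline small RNA pathways, had 33.2 FPKM in the triple mutant and 82.3 in the double mutant, against 94.4 in nuo-6 and 61.1 in WT. glh-2, a Vasa-related helicase of germ granules, had 4.38 FPKM in the triple mutant and 9.78 in the double mutant, against 14.6 in nuo-6 and 8.06 in WT. In these 3 genes the triple mutant was the lowest pool and the double mutant and nuo-6 were both above WT. The same order was seen in msp-3 and msp-74. spo-11, which makes meiotic DNA breaks, had 4.73 FPKM in the triple mutant and 9.41 in the double mutant, against 19.8 in nuo-6 and 7.22 in WT. The list summed to 1514 FPKM in the triple mutant and 2355 in the double mutant, against 2781 in nuo-6 and 2174 in WT. Of 43 cell cycle genes 5 had a lower difference and 1 a higher one, both smaller shares than in all compared genes, with a median difference of -0.44, and the B-type cyclin cyb-1 had 25.6 FPKM in the triple mutant and 53.8 in the double mutant, against 69.2 in nuo-6 and 52.5 in WT.

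Of 18 compared core histone genes, 9 were lower and 0 higher in the difference, beside 19.3% and 7.19% of all compared genes. These core histone genes had a median effect of -1.49 without H3.3 and -0.33 with it. Their median difference of -0.91 became 0.00108 when the effects were centred within bins of transcript length. his-38 had 2.31 FPKM in the triple mutant and 7.32 in the double mutant, against 11.3 in nuo-6 and 3.91 in WT. his-61 had 4.97 FPKM in the triple mutant and 15.1 in the double mutant, against 10.6 in nuo-6 and 12.21 in WT. Core histone transcripts lack long poly(A) tails and the copies are near-identical, so these low values are uncertain. Among variants and chaperones, 4 of 24 were lower and 1 higher, near the shares of all compared genes. his-70, another H3.3 gene, had 4.98 FPKM in the triple mutant and 25.3 in the double mutant, against 22.9 in nuo-6 and 17.7 in WT. asfl-1, a histone chaperone of the ASF1 family, had 7.26 FPKM in the triple mutant and 15.6 in the double mutant, against 28.8 in nuo-6 and 14.5 in WT. The 2 were gained lower effects, and the triple mutant was again the lowest pool. chaf-1, a subunit of the chromatin assembly factor CAF-1, had 10.7 FPKM in the triple mutant and 13.7 in the double mutant, against 25.6 in nuo-6 and 12.5 in WT, a lost higher effect. hil-7, a linker histone, had 4.40 FPKM in the triple mutant and 6.35 in the double mutant, against 1.74 in nuo-6 and 6.94 in WT, a lost lower effect. Histone modifiers and chromatin readers were lower in 2 of 33 with 0 higher, both below the shares of all compared genes, with a median difference of -0.03.

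**Figure D2:**
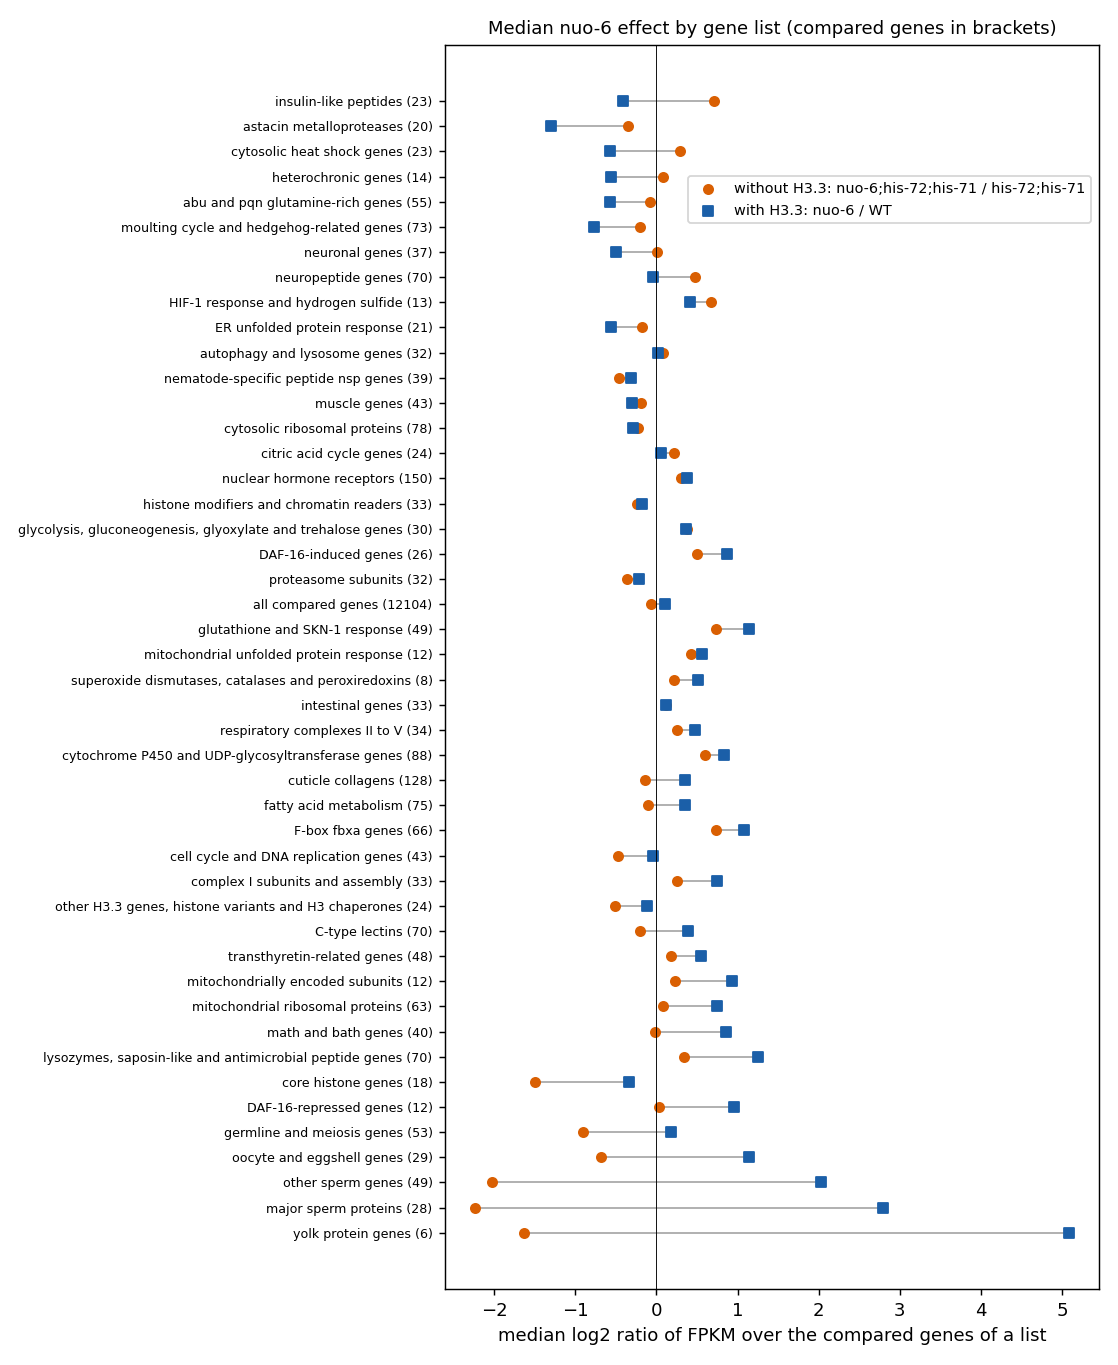
Median log2 nuo-6 effect of the compared genes of each list, without H3.3 (circles) and with H3.3 (squares), ordered by the median difference, with the number of compared genes in brackets and all 12104 genes as a row of their own. Yolk, sperm and oocyte lists at the bottom lie below 0 without H3.3 and above 0 with it, while insulin-like peptides and heat shock genes at the top have the opposite signs. The yolk point without H3.3 rests mostly on values under 5 FPKM.

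Cuticle collagens held the largest single differences among genes with at least 1 FPKM in every pool. col-20 (WBGene00000609, chromosome II, 4869607 to 4870791) had 3.82 FPKM in the triple mutant and 4.89 in the double mutant, against 1957 in nuo-6 and 9.05 in WT. col-19 (WBGene00000608, chromosome X, 421707 to 422776), known as an adult-specific collagen, had 3.47 FPKM in the triple mutant and 4.60 in the double mutant, against 1194 in nuo-6 and 7.10 in WT. col-139 had 9.63 FPKM in the triple mutant and 10.8 in the double mutant, against 1638 in nuo-6 and 16.38 in WT. These genes were low in all pools but nuo-6, and col-119, col-20, col-19, col-178, col-139 and col-81 were the 6 leading lost higher effects, with differences of -8.31, -8.12, -7.80, -7.70, -6.81 and -6.74. col-119 shares its listed locus with another gene. The family as a whole was divided, with 47 of 128 lower and 21 higher in the difference. Its median difference of -0.26 lay near the -0.16 of all genes and became 0.12 when effects were centred by transcript length.

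Of the 6 leading lost effects that were lower with H3.3, among genes with at least 1 FPKM in every pool, abu-10, abu-6, abu-1 and abu-15 belong to the abu and pqn list. The abu and pqn genes encode glutamine-rich proteins, many of them expressed in the pharynx when its cuticle is made. Of 55 compared members, 22 had a more positive effect without H3.3 and 1 a more negative one, with a median effect of -0.08 without H3.3 and -0.57 with it and a median difference of 0.56. abu-10 had 35.5 FPKM in the triple mutant and 24.6 in the double mutant, against 2.37 in nuo-6 and 54.8 in WT. abu-15 had 21.7 FPKM in the triple mutant and 24.7 in the double mutant, against 1.98 in nuo-6 and 47.5 in WT. pqn-54 had 29.4 FPKM in the triple mutant and 26.4 in the double mutant, against 4.35 in nuo-6 and 72.4 in WT. In all 3 nuo-6 was the lowest pool by a wide margin and WT the highest. T06E4.10 and F20B10.3, which the tables give no other name, had differences of 4.93 and 4.51 of the same kind. T06E4.10 had 70.3 FPKM in the triple mutant and 65.2 in the double mutant, against 5.89 in nuo-6 and 167 in WT.

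Of 73 moulting cycle and hedgehog-related genes 10 had a higher difference and 1 a lower one, and nuo-6 lowered 1 of them at least 2-fold without H3.3, against 22 with it. Their median difference was 0.56. Over all compared genes 7.19% had a higher difference and 19.3% a lower one. nhr-25, a nuclear receptor needed for moulting, had 13.3 FPKM in the triple mutant and 12.4 in the double mutant, against 2.95 in nuo-6 and 10.7 in WT. grl-6, a hedgehog-related gene, had 4.19 FPKM in the triple mutant and 4.65 in the double mutant, against 0.257 in nuo-6 and 5.44 in WT. Astacin metalloproteases, some of which act at the moult, were higher in 8 of 20 with 1 lower and a median difference of 0.91. nas-15 had 33.4 FPKM in the triple mutant and 45.4 in the double mutant, against 5.68 in nuo-6 and 44.2 in WT. nas-20 was the exception, with 0.176 FPKM in the triple mutant and 0.130 in the double mutant, against 25.7 in nuo-6 and 0.282 in WT.

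Heterochronic genes, which set the timing of larval development, had a difference above 0 in all 14 compared members, though only 2 passed 2-fold. Their median effect was 0.08 without H3.3 and -0.56 with it. daf-12, a nuclear receptor of developmental timing, had 43.8 FPKM in the triple mutant and 31.98 in the double mutant, against 19.2 in nuo-6 and 28.3 in WT. hbl-1, a zinc finger regulator of larval timing, had 8.39 FPKM in the triple mutant and 5.27 in the double mutant, against 3.24 in nuo-6 and 4.26 in WT. All 4 pools carry the label late L4. The adult collagen col-19 and the yolk genes were high in nuo-6, the moulting lists were low there, and the part of developmental stage in these differences was not tested.

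**Figure D3:**
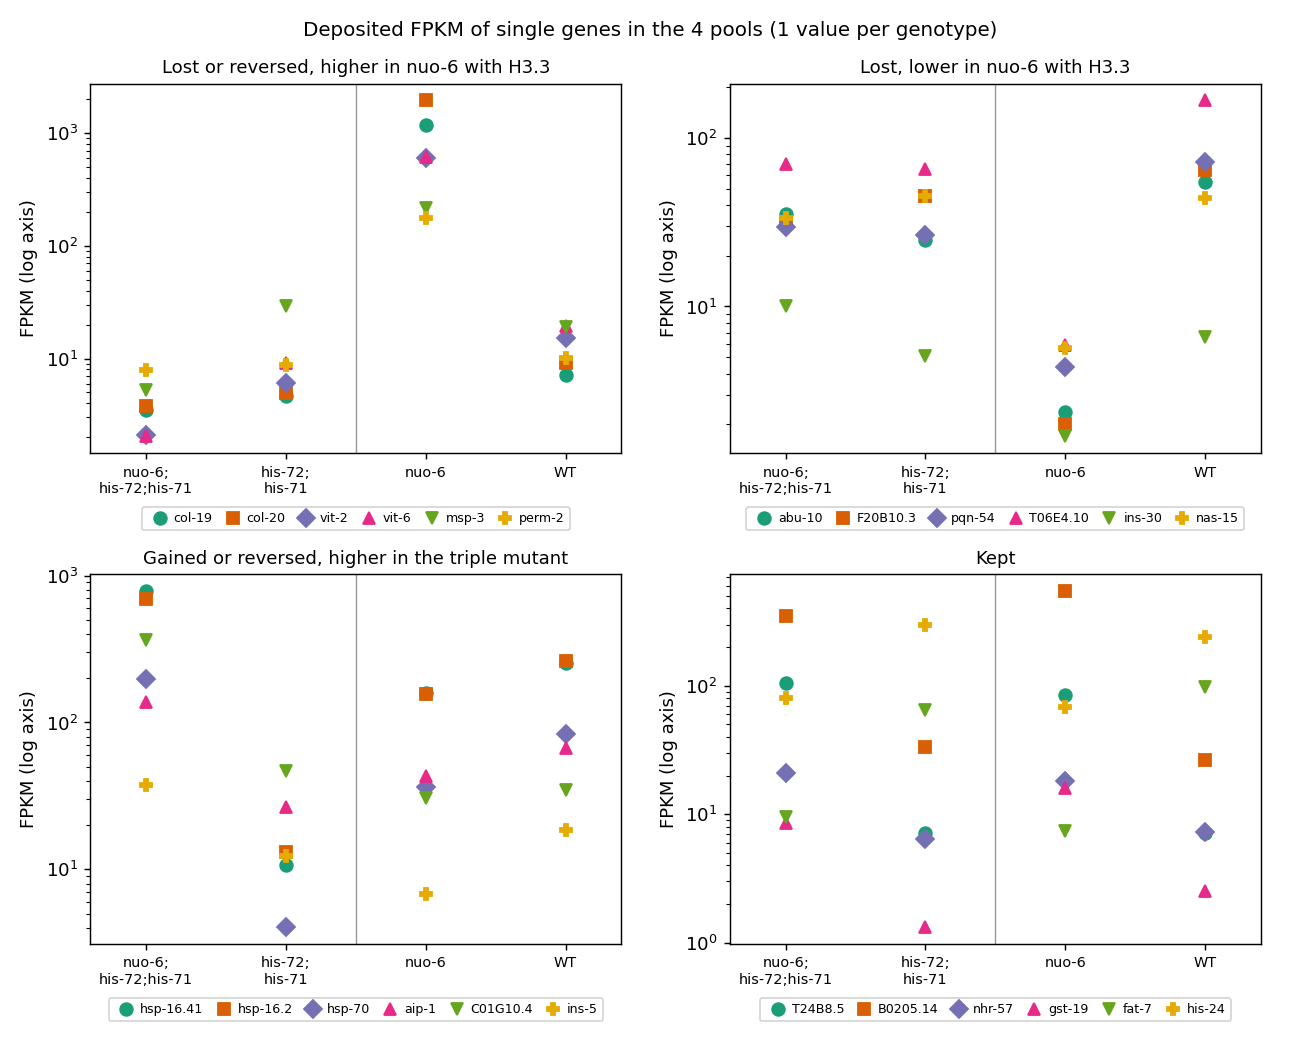
Deposited FPKM (log axis) of 6 genes in each of 4 kinds of effect, 1 value per genotype, with the triple and double mutant on the left of each panel and nuo-6 and WT on the right. In the top left panel nuo-6 alone is high, in the top right panel nuo-6 alone is low, in the bottom left panel the triple mutant is highest, and in the bottom right panel both pools with the nuo-6 mutation lie on the same side of the pool without it.

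In the muscle list 6 of 43 were higher and 1 lower in the difference, with a median of 0.10. Over all compared genes 7.19% were higher and 19.3% lower, so the higher share was above and the lower share below those. The myosin genes of the pharynx led. myo-2 had 42.98 FPKM in the triple mutant and 41.02 in the double mutant, against 15.7 in nuo-6 and 66.1 in WT. myo-1 had 39.6 FPKM in the triple mutant and 36.1 in the double mutant, against 15.1 in nuo-6 and 58.99 in WT. tnt-4, a troponin T gene of the pharynx, had 53.6 FPKM in the triple mutant and 62.3 in the double mutant, against 17.5 in nuo-6 and 83.6 in WT. These were lost lower effects. The body wall myosin genes, named after their values were seen, had differences of -0.51 in unc-54 and -0.09 in myo-3. Neuronal genes were higher in 5 of 37 with 1 lower and a median difference of 0.54, again above 7.19% and below 19.3%. tbh-1, which encodes tyramine beta-hydroxylase, was the 1 lower gene, with 0.759 FPKM in the triple mutant and 0.598 in the double mutant, against 22.2 in nuo-6 and 0.643 in WT.

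Insulin-like peptides, ligands of the DAF-2 receptor, had the largest positive median difference of the 45 lists as deposited, 0.99, with 11 of 23 higher and 2 lower. Centred by transcript length this median became 2.03. ins-5 had 37.7 FPKM in the triple mutant and 12.25 in the double mutant, against 6.77 in nuo-6 and 18.5 in WT, a reversal. ins-30 had 10.1 FPKM in the triple mutant and 5.11 in the double mutant, against 1.70 in nuo-6 and 6.58 in WT. ins-7, known as an activating ligand, went the other way with 4.56 FPKM in the triple mutant and 8.57 in the double mutant, against 29.6 in nuo-6 and 9.26 in WT. Of 70 neuropeptide genes 22 had a higher difference and 10 a lower one, beside 7.19% and 19.3% of all compared genes. The first share was larger than in all genes and the second smaller. Their median difference of 0.44 became 0.92 when effects were centred by transcript length. The lowest difference, -3.82, was that of nlp-28, which is also in the list of antimicrobial peptide genes.

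Heat-inducible chaperones led the gained higher effects and the 13 effects reversed from lower with H3.3. Of 23 compared cytosolic heat shock genes 10 had a higher effect without H3.3 and 1 a lower one, with a median effect of 0.29 without H3.3 and -0.57 with it and a median difference of 0.82. hsp-16.41 (WBGene00002018, chromosome V, 1805233 to 1805875), a small heat shock protein gene, had 784 FPKM in the triple mutant and 10.6 in the double mutant, against 159.9 in nuo-6 and 254 in WT. hsp-16.2, a close relative, had 695 FPKM in the triple mutant and 13.13 in the double mutant, against 155 in nuo-6 and 264 in WT. hsp-70, an inducible HSP70 gene that shares its listed locus with another gene, had 197 FPKM in the triple mutant and 4.05 in the double mutant, against 36.2 in nuo-6 and 83.1 in WT. The large effect without H3.3 thus came with a low double mutant as well as a high triple mutant. hsp-16.41 and hsp-16.2 had nuo-6 effects of 6.21 without H3.3 and -0.67 with it, and of 5.73 without H3.3 and -0.77 with it, so that only the first passed 2-fold in each. In F44E5.4 and F44E5.5, also of the HSP70 family, the differences were 5.51 and 5.11. sip-1, another small heat shock protein gene, named after its values were seen, had 30.7 FPKM in the triple mutant and 39.8 in the double mutant, against 199 in nuo-6 and 43.3 in WT and was a lost higher effect. The hsp-16 and HSP70 genes respond to many stresses, and with 1 pool per genotype their levels cannot be set against the spread between cultures.

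Other gained higher effects were of mixed kinds. aip-1, an arsenite-inducible gene, had 138 FPKM in the triple mutant and 26.4 in the double mutant, against 43.1 in nuo-6 and 67.00 in WT. sqst-1, the p62-like autophagy receptor, had 139 FPKM in the triple mutant and 43.01 in the double mutant, against 94.01 in nuo-6 and 86.2 in WT. pek-1, a kinase of the ER stress response, had 44.9 FPKM in the triple mutant and 19.8 in the double mutant, against 26.6 in nuo-6 and 37.8 in WT. In these 3 the double mutant was the lowest pool and nuo-6 lay below or near WT. nhr-17, a nuclear hormone receptor gene, had 96.1 FPKM in the triple mutant and 12.21 in the double mutant, against 44.1 in nuo-6 and 60.5 in WT. C01G10.4 had 367 FPKM in the triple mutant and 46.6 in the double mutant, against 30.6 in nuo-6 and 34.9 in WT, and its 3 other pools were near each other. F48G7.8 had 19.01 FPKM in the triple mutant and 2.73 in the double mutant, against 2.34 in nuo-6 and 3.77 in WT.

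Genes of HIF-1, the transcription factor of low oxygen, and of hydrogen sulfide handling were higher in 3 of 13 with 0 lower. Over all compared genes 7.19% were higher and 19.3% lower. The list had a median difference of 0.41. Its median log2 ratio of triple mutant over nuo-6 was 0.002 and that of double mutant over WT -0.34. cysl-2, a cysteine synthase family gene, had 131 FPKM in the triple mutant and 42.98 in the double mutant, against 131 in nuo-6 and 95.7 in WT. egl-9, the prolyl hydroxylase that restrains HIF-1, had 34.6 FPKM in the triple mutant and 21.7 in the double mutant, against 21.6 in nuo-6 and 29.8 in WT. F22B5.4 had 62.1 FPKM in the triple mutant and 12.06 in the double mutant, against 66.98 in nuo-6 and 28.3 in WT, called higher in both settings and larger without H3.3. Of this list 4 members were kept, among them nhr-57, a known target of HIF-1, which was named after its values were seen and had 21.01 FPKM in the triple mutant and 6.36 in the double mutant, against 18.1 in nuo-6 and 7.27 in WT.

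Gained lower effects were led by genes without an established name. F58A6.9 had 3.25 FPKM in the triple mutant and 34.5 in the double mutant, against 42.1 in nuo-6 and 21.1 in WT, and its effect with H3.3 lay just under the call. ZK550.5, C35E7.10, Y105C5B.18, W03F11.4 and mpst-4 had differences between -3.74 and -3.35, and their effects with H3.3 were all at least 0.84 and under the call at 1. These are the 6 largest differences of the class among genes with at least 1 FPKM in every pool, and over all 264 gained lower genes the median effect with H3.3 was 0.40.

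The complex I list, to which nuo-6 belongs, had lower differences in 5 of 33 with 0 higher, a smaller share than the 19.3% of all compared genes, with a median effect of 0.26 without H3.3 and 0.74 with it and a median difference of -0.45. C33A12.1 had 365 FPKM in the triple mutant and 301 in the double mutant, against 1048 in nuo-6 and 314 in WT. lpd-5, a complex I subunit, had 386 FPKM in the triple mutant and 322 in the double mutant, against 972 in nuo-6 and 341 in WT. nduf-2.2, another subunit gene, had 17.8 FPKM in the triple mutant and 45.3 in the double mutant, against 75.7 in nuo-6 and 39.5 in WT, with the triple mutant lowest. Mitochondrial ribosomal protein genes were lower in 18 of 63 with 0 higher, with a median effect of 0.08 without H3.3 and 0.74 with it. mrps-33 had 195 FPKM in the triple mutant and 170.1 in the double mutant, against 680.2 in nuo-6 and 153 in WT. Mitochondrially encoded subunits were lower in 3 of 12, and complexes II to V in 4 of 34, with 0 higher in both, and the share in complexes II to V was again below 19.3%. Centred by transcript length, the median differences became -0.03 for complex I, -0.34 for mitochondrial ribosomal proteins and -0.14 for mitochondrially encoded subunits. The median for complexes II to V of -0.22 became 0.19.

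The mitochondrial unfolded protein response, which mitochondrial defects are known to induce, was lower in 2 of 12 and higher in 0, near the 19.3% of all compared genes that were lower. Its median difference of -0.19 became 0.13 when genes sharing a listed locus were left out and 0.0051 with the pools scaled to equal median ratios. clpp-1, a mitochondrial protease, had 82.7 FPKM in the triple mutant and 65.2 in the double mutant, against 165 in nuo-6 and 57.4 in WT. trx-2, the mitochondrial thioredoxin, had 147 FPKM in the triple mutant and 89.8 in the double mutant, against 307 in nuo-6 and 75.1 in WT. The chaperone genes of the same list, hsp-6 and hsp-60, named after their values were seen, were not called, with differences of 0.70 and 0.71. hsp-6 had 642 FPKM in the triple mutant and 343 in the double mutant, against 470.4 in nuo-6 and 407 in WT.

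Of 70 lysozyme, saposin-like and antimicrobial peptide genes 31 had a lower difference and 2 a higher one, and 26 were lost effects, with a median effect of 0.34 without H3.3 and 1.25 with it and a median difference of -0.84, which became -0.0387 when effects were centred by transcript length. nlp-28, an antimicrobial peptide gene of the skin, had 19.2 FPKM in the triple mutant and 15.01 in the double mutant, against 247 in nuo-6 and 13.7 in WT. nlp-27, its neighbour in the family, had 78.6 FPKM in the triple mutant and 54.6 in the double mutant, against 518 in nuo-6 and 53.1 in WT. mtl-2, a metallothionein gene from the intestinal list, had 56.3 FPKM in the triple mutant and 109 in the double mutant, against 1362 in nuo-6 and 56.3 in WT. In all 3 nuo-6 stood far above the other pools.

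Kept effects passed the call in the same direction without and with H3.3. The genes named here were chosen after their values were seen. T24B8.5, an immune effector gene, had 105 FPKM in the triple mutant and 7.14 in the double mutant, against 85.2 in nuo-6 and 7.19 in WT. gst-4, a glutathione S-transferase gene and a target of SKN-1, had 226 FPKM in the triple mutant and 40.97 in the double mutant, against 212 in nuo-6 and 37.9 in WT. hrg-2, a haem-responsive gene, had 143 FPKM in the triple mutant and 10.04 in the double mutant, against 194 in nuo-6 and 9.91 in WT. Each was called higher in both settings, with differences of 0.32, -0.03 and -0.46. cyp-14A4, a cytochrome P450 gene, had 35.3 FPKM in the triple mutant and 2.03 in the double mutant, against 28.5 in nuo-6 and 2.83 in WT. In the other direction, fat-7, a stearoyl-CoA desaturase gene, had 9.54 FPKM in the triple mutant and 64.8 in the double mutant, against 7.44 in nuo-6 and 97.8 in WT. his-24, a linker histone, had 80.1 FPKM in the triple mutant and 300.0 in the double mutant, against 67.9 in nuo-6 and 242 in WT, and ilys-5, an invertebrate lysozyme gene, had 54.7 FPKM in the triple mutant and 1515 in the double mutant, against 78.5 in nuo-6 and 1702 in WT.

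Detoxification lists held kept effects as well, which made up 2.92% of all compared genes. Of 88 cytochrome P450 and UDP-glycosyltransferase genes, 21 were kept and 6 lost, with 26 higher and 0 lower without H3.3, against 36 higher and 2 lower with it. Of 49 glutathione and SKN-1 response genes, 11 were kept, 9 lost and 4 gained, with 19 higher without H3.3 and 26 with it. gst-12 had 31.6 FPKM in the triple mutant and 4.61 in the double mutant, against 9.54 in nuo-6 and 4.33 in WT, a larger effect without H3.3. gst-22 had 40.6 FPKM in the triple mutant and 24.6 in the double mutant, against 78.9 in nuo-6 and 16.9 in WT, a lost effect. Their median differences, -0.25 and -0.18, lay near that of all genes, and the second became 0.01 with the pools scaled to equal median ratios.

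Some of the largest ratios rest on values near 0. T22B7.8, which shares its listed locus, had 0.102 FPKM in the triple mutant and 5.76 in the double mutant, against 155 in nuo-6 and 0.00927 in WT. W02D9.6 had 0.117 FPKM in the triple mutant and 0.102 in the double mutant, against 42.8 in nuo-6 and 0.0522 in WT. F56A4.3 had 0.0910 FPKM in the triple mutant and 0.0668 in the double mutant, against 0.251 in nuo-6 and 19.02 in WT. Values this far under 1 FPKM are imprecise, and these differences give little more than a direction. col-8 and col-143, at 840.1 and 346 FPKM in nuo-6, were also under 2 FPKM in the other 3 pools.

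The classes differed in where their genes lie. Of the genes reversed from higher with H3.3, 1.06% lay on the X chromosome, as did 3.79% of gained lower genes and 97 of the 1212 lost higher genes. In lost lower genes the share was 26.5%, in kept lower genes 28.9% and in gained higher genes 17.4%, against 13.3% of all compared genes. Chromosome V held 40.2% of kept higher genes, against 19.1% of all compared genes. Germline genes are known to be rare on the X chromosome of the worm, and what share of this pattern they account for was not tested.

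**Figure D4:**
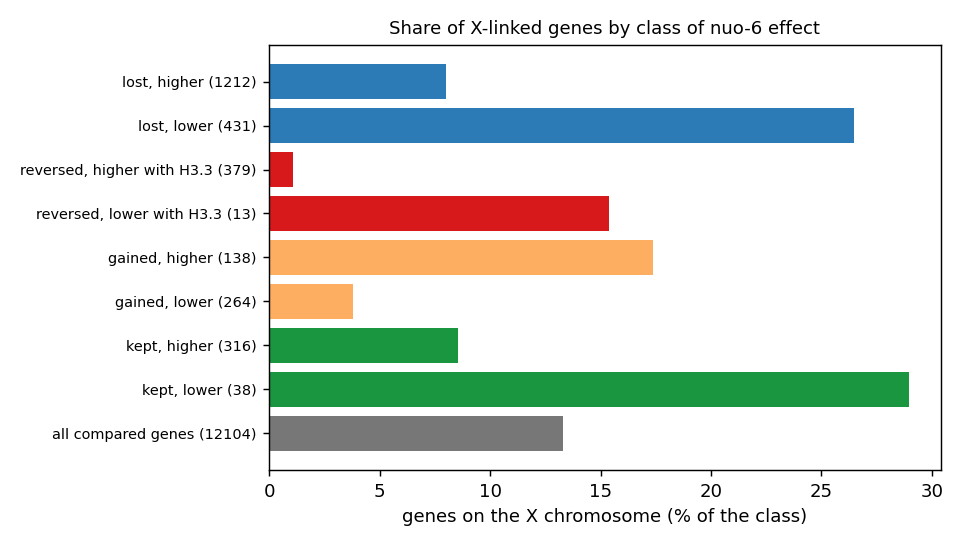
Percent of genes on the X chromosome in each class of nuo-6 effect, with the number of genes in brackets and all 12104 compared genes at the bottom. The 379 genes reversed from higher with H3.3 had 1.06% on X, and the 431 lost lower genes 26.5%.

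The difference between the effects moved with transcript length. In 5 equal groups of genes from the shortest (102 to 730 bases) to the longest (2287 to 45903 bases), the median effect without H3.3 was 0.05, -0.06, -0.06, -0.10 and -0.11. The median effect with H3.3 was 0.70, 0.37, 0.17, -0.01 and -0.20. The slope with length was therefore mainly in the nuo-6 over WT ratio. Differences called lower made up 35.5% of the shortest group and 5.71% of the longest, and differences called higher 9.49% and 5.75%. The reversed genes that were higher with H3.3 had a median length of 747 bases and the lost higher genes one of 828.5, beside 1335 for all compared genes. Centred by length, 758 of the 1212 lost higher genes and 282 of the 379 reversed genes stayed in their class. The part of transcript length in the classes was otherwise not tested.

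**Figure D5:**
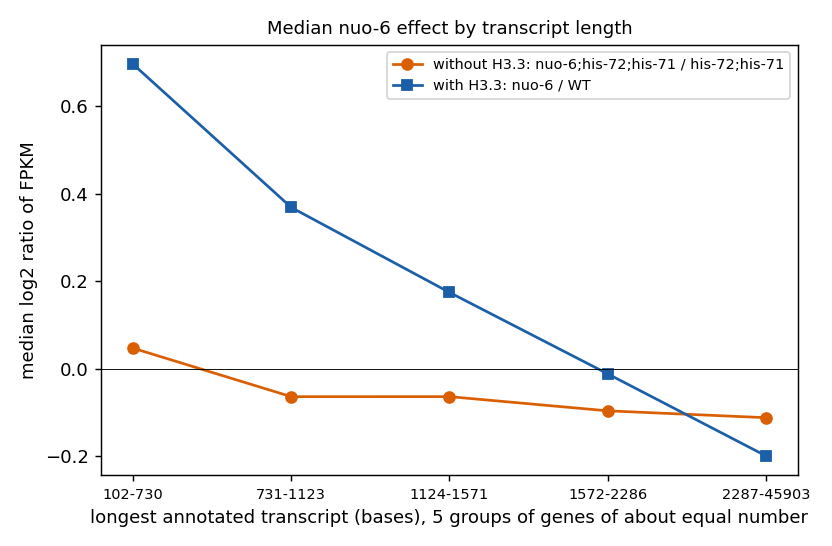
Median log2 nuo-6 effect in 5 groups of genes by length of the longest annotated transcript, without H3.3 (circles) and with H3.3 (squares). The line without H3.3 runs from 0.05 in the shortest group to -0.11 in the longest, and the line with H3.3 from 0.70 to -0.20.

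Among genes with a geometric mean of 100 FPKM or more over the 4 pools, 11.96% were called lower and 4.27% higher, against 19.3% and 7.19% of all compared genes. Among the 1452 genes with a geometric mean under 5 FPKM, 50.7% were called lower and 12.7% higher. Such genes passed the minimum through their higher pools. Of the 1212 lost higher genes, all reached 5 FPKM in nuo-6 but only 620 in WT. Lists of abundant housekeeping genes had few calls. The citric acid cycle list had 0 of 24 in either direction, the proteasome 1 lower of 32, and cytosolic ribosomal proteins 1 higher and 5 lower of 78.

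The daf-2(e1370) pools, which share WT and the double mutant with the nuo-6 comparison, give the same genes in another long-lived background. vit-2 had 2435 FPKM in the daf-2 triple mutant and 1.95 in daf-2. col-19 had 158 and 1.29 FPKM in the same pools, and hsp-16.41 had 40.3 and 1488. For these 3 genes, chosen after their values were seen, the ratio of the H3.3-deficient pool to its H3.3-carrying counterpart was opposite in the daf-2 and nuo-6 backgrounds.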

How the data were processed

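Whole late L4 worms of 6 genotypes with 5 biological replicates each were sequenced as mRNA libraries by standard Illumina protocols, per the labels' protocols. RNA was extracted with a column kit. The deposited values are FPKM, computed by the authors with STAR, Cufflinks and Cuffdiff after FastQC, per the submitters' processing notes. Versions and the genome build are not given in the sources used here. Each genotype has 1 FPKM value per gene, and how replicates were combined is not stated, so no test, error or interval was computed and p-values are absent. Depth is unknown.

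No pseudocount and no rescaling were applied. A row that names no gene was dropped. Log2 ratios, classes and medians of 45 gene lists were computed with Python 3.11.15 and pandas 2.3.3, and checked on simulated data. Of the list members 2790 were matched, 20 through the current symbol, and 12 were not found. Listed starts count from 0 and were raised by 1. Transcript lengths are those of the longest WBcel235 transcript, found for 12015 compared genes. The members and lists were chosen with earlier results of these data known. A ratio of 2 took the place of a test. Genes were named by rule: the mutated genes, the 6 largest differences per class among genes with at least 1 FPKM in all pools, the 3 largest overall either way, and at most 5 called genes per list, with some left out for length. The alternatives were other ratios, FPKM minima, scaling, a pseudocount, genes at 0 and shared loci.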

Additional observations from a re-analysis of the deposited data

Results flagged for a closer look

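The nuo-6 effect had opposite called directions without and with H3.3 in the 12 named reversed genes, and the difference was not tested in any of them, since each pool is 1 value. In 6 genes the effect was lower without H3.3 and higher with it. The differences were -7.12 in vit-6, -6.81 in vit-2, -6.37 in msp-74, -6.09 in Y51H7C.8, -5.98 in msp-3 and -5.97 in C32E8.4. Y51H7C.8 had 1.47 FPKM in the triple mutant and 5.88 in the double mutant, against 35.4 in nuo-6 and 2.09 in WT, and C32E8.4 had 3.62 FPKM in the triple mutant and 15.2 in the double mutant, against 123 in nuo-6 and 8.23 in WT. In the other 6 genes the effect was higher without H3.3 and lower with it. Here the differences were 6.80 in hsp-70, 6.55 in R11A5.3, 4.95 in F44G3.2, 3.22 in R08A2.7, 3.08 in ins-5 and 2.92 in C13G3.1. R11A5.3 had 80.98 FPKM in the triple mutant and 1.95 in the double mutant, against 11.3 in nuo-6 and 25.5 in WT, close in pattern to hsp-70. F44G3.2 had 136 FPKM in the triple mutant and 46.6 in the double mutant, against 3.46 in nuo-6 and 36.8 in WT.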

How the results depend on the processing

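There were 10 alternatives, 9 of them planned and 1, the centring of effects in 20 bins of transcript length, chosen after seeing the data. No named difference of at least 1 on the log2 scale turned its direction under scaling, a pseudocount or length centring. The other settings, which change the ratio or the FPKM minimum or leave genes out, cannot change a gene's difference. Medians of 6 of 45 lists changed sign with scaled pools, none over 0.19 in size as deposited, and of 10 lists with length centring, none over 0.91. Of 100 recomputed counts 59 stayed within 1.5 times of the value reported. Of 450 recomputed list medians 442 shifted by no more than the log2 of 1.5, which can be large beside a median near 0. The ratio settings leave list medians unchanged by construction. With a ratio of 1.5 there were 1886 differences higher and 3747 lower, lost effects numbered 1899 higher and 1011 lower, reversed ones 617 and 101, gained ones 332 higher and 484 lower, and kept ones 487 and 130. With a ratio of 3 there were 372 differences higher and 1395 lower, 644 and 207 lost, 221 and 1 reversed, 33 gained higher, and 165 and 18 kept. With a minimum of 1 FPKM there were 1441 differences higher, 737 lost lower, 914 and 25 reversed, 244 and 563 gained, and 491 and 58 kept. With a minimum of 20 FPKM there were 419 differences higher and 1235 lower, 202 lost lower, 76 and 8 reversed, 75 and 77 gained, and 150 and 17 kept. These shifts follow from the construction of the settings. Scaled pools gave 25 genes reversed from lower with H3.3. Length centring gave 1356 differences higher, 780 lost higher, 743 lost lower and 35 reversed from lower, and the cause was not tested. It moved the median differences of insulin-like peptides to 2.03, major sperm proteins to -3.93, other sperm genes to -3.23, nsp genes to 1.25, core histones to 0.00108 and antimicrobial genes to -0.0387. The yolk median was -5.28 with a pseudocount of 1. It was -6.97 with at least 1 FPKM in all 4 pools, where only vit-6 and vit-2 remained in the list. No paired analysis was possible because each genotype has 1 pooled value, and leaving out each replicate was not run for the same reason. Depth limits genes near 5 FPKM most, and it is unknown.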

Other observations

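Over all compared genes 19.3% had a lower difference and 7.19% a higher one. Some large gene families passed these shares and others did not. Of 40 compared math and bath genes, whose products are thought to recruit proteins for degradation, 16 had a lower nuo-6 effect without H3.3 and 0 a higher one, with a median effect of -0.01 without H3.3 and 0.85 with it. Their median difference of -0.84 became -0.48 when effects were centred by transcript length. In nuo-6 39 members reached 5 FPKM, against 31 in the triple mutant, 28 in the double mutant and 23 in WT. bath-13 had 4.52 FPKM in the triple mutant and 3.75 in the double mutant, against 9.58 in nuo-6 and 2.11 in WT. Of 66 F-box fbxa genes 14 had a lower difference and 1 a higher one, near or below the shares of all genes, and 15 of them were kept effects. Of 48 transthyretin-related genes 17 had a lower difference and 4 a higher one, with 15 lost. Their median difference of -0.49 became -0.0175 when effects were centred by transcript length. ttr-42 had 0.274 FPKM in the triple mutant and 0.105 in the double mutant, against 43.3 in nuo-6 and 0.0919 in WT. Nuclear hormone receptor genes had 8 higher and 8 lower of 150, both below the shares of all genes, and 16 kept effects.

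Of 75 fatty acid metabolism genes 13 had a lower difference and 0 a higher one, below the shares of all compared genes. elo-8, an elongase gene, had 1.46 FPKM in the triple mutant and 5.43 in the double mutant, against 23.6 in nuo-6 and 3.0999 in WT. acdh-8, an acyl-CoA dehydrogenase gene, had 1.97 FPKM in the triple mutant and 10.8 in the double mutant, against 18.5 in nuo-6 and 7.06 in WT. Both stood in the order of the sperm genes, with nuo-6 highest and the triple mutant lowest. Genes that DAF-16 is known to repress were lower in 6 of 12, with a median effect of 0.03 without H3.3 and 0.95 with it, and dod-22 had 38.9 FPKM in the triple mutant and 10.1 in the double mutant, against 79.1 in nuo-6 and 7.78 in WT. The list drawn up as DAF-16-induced genes went both ways, 3 higher and 7 lower of 26. Among the lower ones it counts ins-7, which had 1.65 FPKM in daf-2 against 9.26 in WT and so may not belong there. Of 39 nematode-specific nsp peptide genes 9 had a higher difference and 11 a lower one. In nspd-2, also in the list of other sperm genes, the values were 12.95 FPKM in the triple mutant and 60.9 in the double mutant, against 301 in nuo-6 and 42.7 in WT. Of 33 intestinal genes 4 had a lower difference and 1 a higher one, below the shares of all genes.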
